A study of Mus musculus with 4 samples.

Results

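T cell receptor gene segments are the V (variable), D (diversity), J (joining) and C (constant) genes from which the antigen receptor of T cells is assembled. The deposited table of small intestinal ILC3s held 226 rows with a T cell receptor V, D, J or C biotype among 53379 genes (0.423%), and all of these rows were taken as members whatever their values. There were 144 V, 4 D, 70 J and 8 C segments. The alpha and delta loci, which are nested on chromosome 14, held 172 of them, the beta locus on chromosome 6 held 39 and the gamma locus on chromosome 13 held 15.

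ILC3s are group 3 innate lymphoid cells, which are abundant in the gut and do not carry an antigen receptor. The libraries came from mixed bone marrow chimeras, in which equal numbers of marrow cells of both donors were given to sublethally irradiated Rag2-/-Il2rg-/- hosts and the gut was taken 6 to 7 weeks later. Brg1-sufficient ILC3s descended from Thy1.2 Rag1-/-Smarca4f/f donors, and Brg1-deficient ILC3s from Thy1.1Thy1.2 Rag1-/-Smarca4f/f donors that also carried a Cre transgene. The sort took Thy1.2-high CD45-low lamina propria lymphocytes, Thy1.1- or Thy1.1+ by origin, with no CD3 gate named for it, and 2 libraries were made per group. Ages of the animals are not given in the sources used here. Smarca4, the gene of Brg1, was at 17.1 and 16.7 FPKM (read fragments scaled by transcript length and library size) in the Brg1-sufficient (sufficient) libraries, against 9.98 and 9.03 FPKM in the Brg1-deficient (deficient) ones, so the targeted transcript was lower but still present. Genotype, the Thy1.1 allele and the sort gate changed together and cannot be told apart.

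In developing T cells, the RAG recombinase joins one V, one J and, in the beta and delta loci, a D segment, and the joined exon is spliced to a C gene. Both donors lacked Rag1 and the hosts lacked Rag2, so that recombination could not take place in any cell of these mice and the segments stayed in germline order. Unrearranged loci can still be transcribed, and such germline transcripts are known to start upstream of D, J or C segments in lymphoid precursors and in innate lymphocytes. The gamma locus of the mouse is built of 4 cassettes, each with its own J and C segment, and the beta locus holds a pair of D-J-C clusters that end in Trbc1 and Trbc2.

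The J segments on which the results below turn are very short, and their letters show how much and how little sequence a read has to work with. They are printed 5′ to 3′ on their own strand, from the GENCODE M21 transcripts on GRCm38, and the capitals mark the codons of the Phe-Gly/Ala-X-Gly motif, the bend that T cell receptor J segments share. This pattern of codons was found in 61 of the 70 J segments (87.1%), in 12 of 13 in the beta locus and in 4 of 4 in the gamma locus. The beta segments come first, at chr6:41534323-41534376, chr6:41535554-41535606 and chr6:41542754-41542803, followed by the gamma segments at chr13:19210343-19210402, chr13:19311245-19311304 (minus strand), chr13:19257117-19257176 and chr13:19342152-19342212.
Trbj1-3: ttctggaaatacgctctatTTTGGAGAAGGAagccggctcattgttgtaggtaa
Trbj1-6: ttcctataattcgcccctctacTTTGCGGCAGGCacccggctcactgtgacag
Trbj2-1: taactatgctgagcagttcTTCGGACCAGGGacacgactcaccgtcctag
Trgj1: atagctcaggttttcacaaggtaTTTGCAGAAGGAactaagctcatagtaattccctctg
Trgj2: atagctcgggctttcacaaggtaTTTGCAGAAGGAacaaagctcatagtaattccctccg
Trgj3: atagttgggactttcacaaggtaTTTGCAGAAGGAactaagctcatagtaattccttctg
Trgj4: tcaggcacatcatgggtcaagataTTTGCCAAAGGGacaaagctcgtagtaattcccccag
Trgj1 and Trgj2 differed at 4 of 60 bases, and Trgj3 differed from each of them at 6. Every 50-base window of these 7 segments was nevertheless found in no other annotated transcript.

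Transcripts of the T cell receptor loci were present in the sorted cells of both groups, and they were concentrated in few segments. The summed level of all members was 1497 and 1362 FPKM in sufficient ILC3s and 677 and 787 FPKM in deficient ILC3s, which was 0.209% and 0.107% of all FPKM on average. Of the 226 members, 121 had a value above 0 in some library, of which 22 had one in all 4, and every other member was listed at 0 throughout. The libraries held 79, 63, 43 and 74 members above 0, in the order Brg1-sufficient 1 and 2 and Brg1-deficient 1 and 2, while they listed 35241, 33206, 30046 and 36929 genes of any kind above 0. The depth of the libraries is unknown.

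A mean above 1 FPKM in either group, the limit for testing, was passed by 36 members: 22 of them passed it in both groups, 10 in Brg1-sufficient ILC3s alone and 4 in Brg1-deficient ILC3s alone. They were 16 alpha/delta, 9 beta and 11 gamma segments. A member that passed through 1 group had to differ between the groups, so the counts and medians below are descriptions. The median log2 fold change of the 36 (Brg1-deficient over Brg1-sufficient, on log2(FPKM + 1)) was -0.66, where that of all 14739 genes tested was 0.03. By locus it was -0.58 for alpha/delta, -1.33 for beta and -0.62 for gamma. These medians depended on single libraries: without the first Brg1-sufficient one, the median of the 36 was -0.10, that of the beta segments was -1.32, that of the gamma segments was -0.48, and that of the alpha/delta segments was 0.91. Without the second Brg1-sufficient library the median of the 36 was -1.36, and without the first Brg1-deficient one that of the alpha/delta segments was 0.17.

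In a limma fit to log2(FPKM + 1), adjusted by Benjamini-Hochberg across the whole table of tested genes, 3 members had an adjusted p under 0.05, namely Tcrg-C4, Trbc1 and Trbj1-6. All 3 were lower in Brg1-deficient ILC3s, a direction in which 0.224% of the genes tested were called. In the other direction 0 members were called (0.0814% of genes tested), with 1 member at an unadjusted p under 0.05 and with the replicate number added to the fit 1 higher and 9 lower members were called. At an unadjusted p under 0.05, 10 members were lower and 1 was higher, where 6.47% and 6.12% of all genes tested were lower and higher. A looser set of criteria (p under 0.05, adjusted p under 0.4, a mean above 5 FPKM in either group and a fold of the means beyond 0.5 on the log2 scale) were met by 9 members lower and 1 higher, where 4.37% and 3.85% of all genes tested met them. In 13 members both Brg1-deficient libraries were below both Brg1-sufficient ones and in 1 both were above, and over all genes tested these shares were 20.2% and 24.4%. For any one segment, the smallest p that an exact two-sided permutation test allows with this number of libraries is 0.333. No member had an adjusted p under 0.05 once any library was left out.

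**Figure D1:**
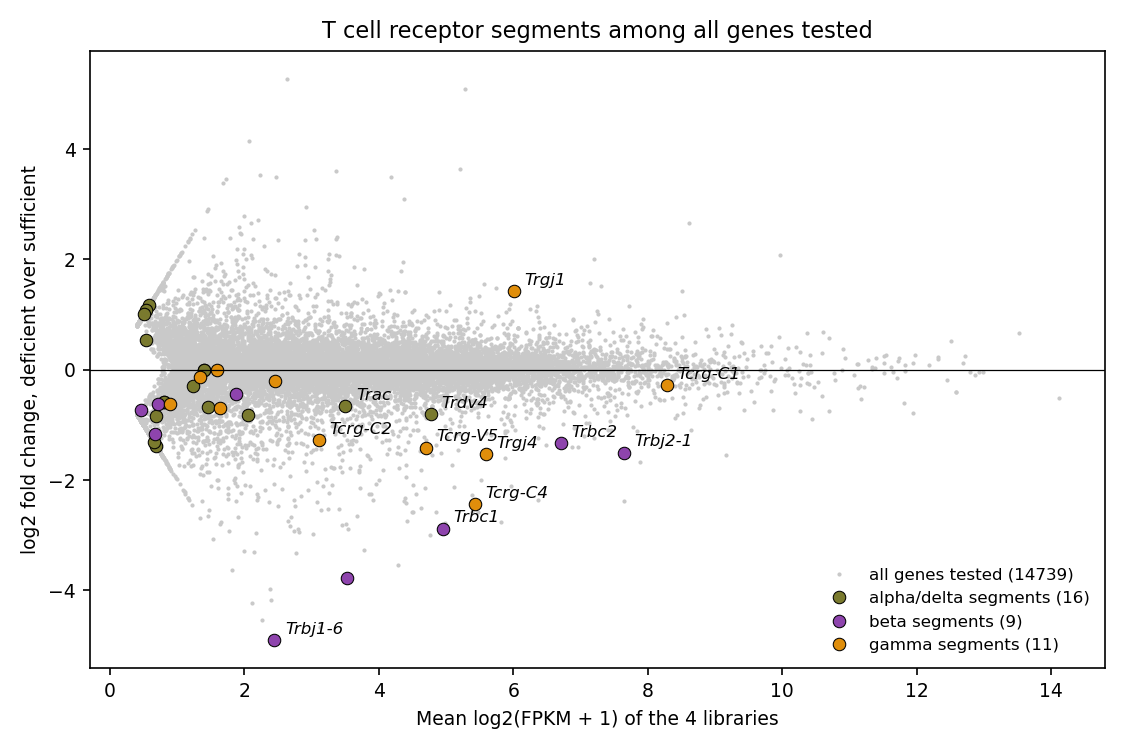
Each point is 1 gene, with its mean log2(FPKM + 1) over the 4 libraries on the horizontal axis and its log2 fold change, Brg1-deficient over Brg1-sufficient, on the vertical axis. Grey points are the 14739 genes tested and coloured points the 36 T cell receptor segments among them: 31 of the 36 lie below 0, and Trgj1 lies above 0 at 1.43.

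Trbc1, Trbc2, Tcrg-C1 and Tcrg-C4 had the highest levels among the constant genes. The summed level of the constant genes was 738 and 727 FPKM in sufficient ILC3s, and 390.4 and 392 FPKM in deficient ILC3s (means 733 ± 8.19 and 391 ± 1.08, SD, n = 2). All 8 had a value in both Brg1-sufficient libraries, and 7 passed the limit for testing. Of these 7, the groups did not overlap in 6, all lower in Brg1-deficient ILC3s, where 20.2% of all genes tested were lower without overlap.

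Trbc1 and Trbc2 encode nearly identical constant regions of the beta chain, and each closes 1 of the D-J-C clusters. Trbc1 (GRCm38, chr6:41538218-41539881) was at 110.4 and 62.5 FPKM in sufficient ILC3s and at 10.6 and 10.3 FPKM in deficient ILC3s. Both deficient values were far below both sufficient ones, and the log2 fold change was -2.88 (SE, the standard error, 0.284, limma, adjusted p = 0.0414). Trbc2 (chr6:41546730-41548352) was at 185.6 and 146.1 FPKM against 74.7 and 56.8 FPKM, again without overlap, with a log2 fold change of -1.32 (SE 0.203, limma, adjusted p = 0.092). The ratio of Trbc1 to Trbc2 within a library was 0.595 and 0.428 in the Brg1-sufficient ILC3s and 0.142 and 0.181 in the Brg1-deficient ones, so Trbc1 made up less of the beta constant transcripts in both deficient libraries. The genes share sequence: 59.5% of the 50-base windows of Trbc1 and 56.0% of those of Trbc2 occurred in no other gene, and reads from the rest could be split between them by the authors' counting.

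The gamma constant genes ranged from nearly level to clearly lower. Tcrg-C1 (chr13:19214103-19217024), the constant gene of the cassette with most V segments, was at 309.6 and 383 FPKM in sufficient ILC3s and at 274.8 and 292.9 FPKM in deficient ILC3s. These groups did not overlap, but the log2 fold change was only -0.28, with a 95% interval from -0.68 to 0.12 (limma, adjusted p = 0.54). Tcrg-C4 (chr13:19344558-19352756), the constant gene at the other end of the locus, was at 85.5 and 115.3 FPKM against 20.1 and 15.2 FPKM. That was a log2 fold change of -2.44 (SE 0.221, limma, adjusted p = 0.0386), and all of its 50-base windows were its own.

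Tcrg-C2 (chr13:19304649-19307551, minus strand) lay between the pair in size of change, at 12.4 and 12.6 FPKM against 4.75 and 4.36 FPKM (log2 fold change -1.28, SE 0.178, limma, adjusted p = 0.0819). Tcrg-C3 was at 0.21 and 1.28 FPKM in sufficient ILC3s and was listed at 0 in both Brg1-deficient libraries, below the limit for testing. Within a library, Tcrg-C1 gave 76.0% and 74.8% of the summed gamma constant FPKM in sufficient ILC3s and 91.7% and 93.8% in the Brg1-deficient ones, and Tcrg-C4 gave 20.96% and 22.5% against 6.70% and 4.85%. These shares did not overlap between the groups, and their difference was not tested. Tcrg-C1, Tcrg-C2 and Tcrg-C3 share sequence as well, with 65.8%, 74.6% and 60.5% of their windows unique.

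Trac, the only constant gene of the alpha chain, was at 33.6 and 4.86 FPKM in sufficient ILC3s and at 5.08 and 12.5 FPKM in deficient ILC3s. The first Brg1-sufficient library alone was high and the groups overlapped, with a log2 fold change of -0.65 (SE 0.871, limma, adjusted p = 0.791) that became 0.63 without that library. Trdc, the delta constant gene, was low throughout, at 1.12 and 1.18 FPKM against 0.32 and 0.10 FPKM, without overlap (log2 fold change -0.84, SE 0.384, limma, adjusted p = 0.461). The antisense gene Gm43434, which overlaps it, was at most 0.21 FPKM.

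**Figure D2:**
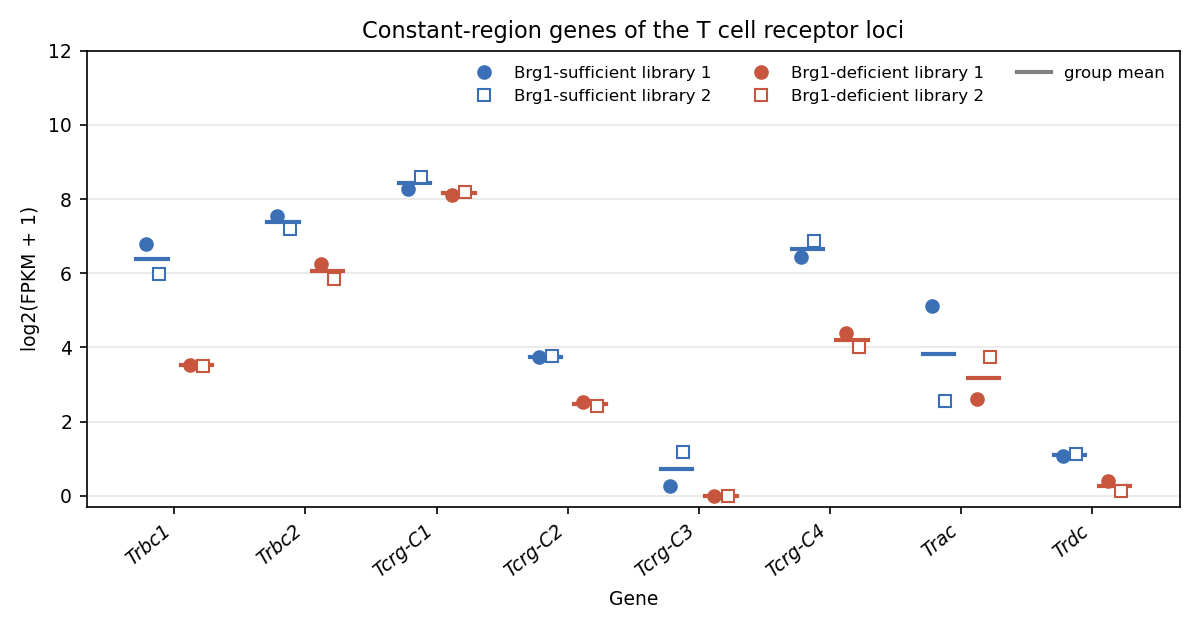
The level of each of the 8 constant genes, as log2(FPKM + 1), is shown for every library, with a bar at each group's mean. Trbc1, Trbc2, Tcrg-C2 and Tcrg-C4 are separated between the groups, Tcrg-C1 is the highest and nearly level, and Trac is spread by 1 high Brg1-sufficient library.

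Among the J segments, values were found in 14 of 70, and in 3 of them in all 4 libraries: Trbj2-1, Trgj1 and Trgj4. Trbj2-1, the first J segment of the second beta cluster and the 50-base sequence printed above, was at 383 and 297.4 FPKM in sufficient ILC3s and at 85.3 and 164.1 FPKM in deficient ILC3s. Both deficient values were lower, by a log2 fold change of -1.50 (SE 0.33, limma, adjusted p = 0.164). No gene shorter than Trbj2-1 had a value, so few reads may underlie its high FPKM, and their number is unknown. The other 5 J segments listed beside it in that cluster stayed at 0 in every library. Of these, Trbj2-3, Trbj2-4, Trbj2-5 and Trbj2-7 are shorter than 50 bases, so their zeros say nothing about transcription.

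In the first beta cluster, 2 of the 7 J segments had values. Trbj1-1, Trbj1-2 and Trbj1-7, which had none, are also shorter than any gene with a value. Trbj1-3 was at 44.1 and 38.9 FPKM in sufficient ILC3s and at 0 and 8.69 FPKM in deficient ILC3s (log2 fold change -3.77, SE 1.01, limma, adjusted p = 0.231). Trbj1-6 was at 17.5 and 46.9 FPKM in sufficient ILC3s and was listed at 0 in both Brg1-deficient libraries (fitted log2 fold change -4.90, SE 0.464, limma, adjusted p = 0.0386). The size of that fitted change depends on the value of 1 added before the log, and no fold is given against the zeros. Trbj1-6 is 53 bases long, so few reads may underlie its values, and their number is unknown. Trbj1-3, Trbj1-6 and Trbc1 thus all lay lower without overlap, as did Trbj2-1 and Trbc2 in the second cluster.

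The gamma J segments lay in both directions. Trgj1, which stands 3701 bases before Tcrg-C1, was at 44.1 and 33.7 FPKM in sufficient ILC3s and at 99.6 and 111 FPKM in deficient ILC3s. It alone among the 36 members tested had both deficient values above both sufficient ones, and its log2 fold change was 1.43 (95% interval 0.97 to 1.88, limma, adjusted p = 0.0675). Its ratio to Tcrg-C1 was 0.142 and 0.0879 in the Brg1-sufficient libraries and 0.362 and 0.379 in the Brg1-deficient libraries.

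Trgj4, which stands 2346 bases before Tcrg-C4, was at 54.1 and 121.9 FPKM in sufficient ILC3s and at 26.1 and 28.8 FPKM in deficient ILC3s. It was lower without overlap, like its constant gene, at a log2 fold change of -1.53 (SE 0.379, limma, adjusted p = 0.199). Trgj2, so close to Trgj1 in sequence, was at 14.7 and 0 FPKM against 5 and 0 FPKM, with the groups overlapping, and Trgj3 was listed at 0 in all 4 libraries. The summed gamma J level was 112.8 and 155.6 FPKM against 130.7 and 139.8 FPKM, because the higher Trgj1 and the lower Trgj4 offset each other.

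**Figure D3:**
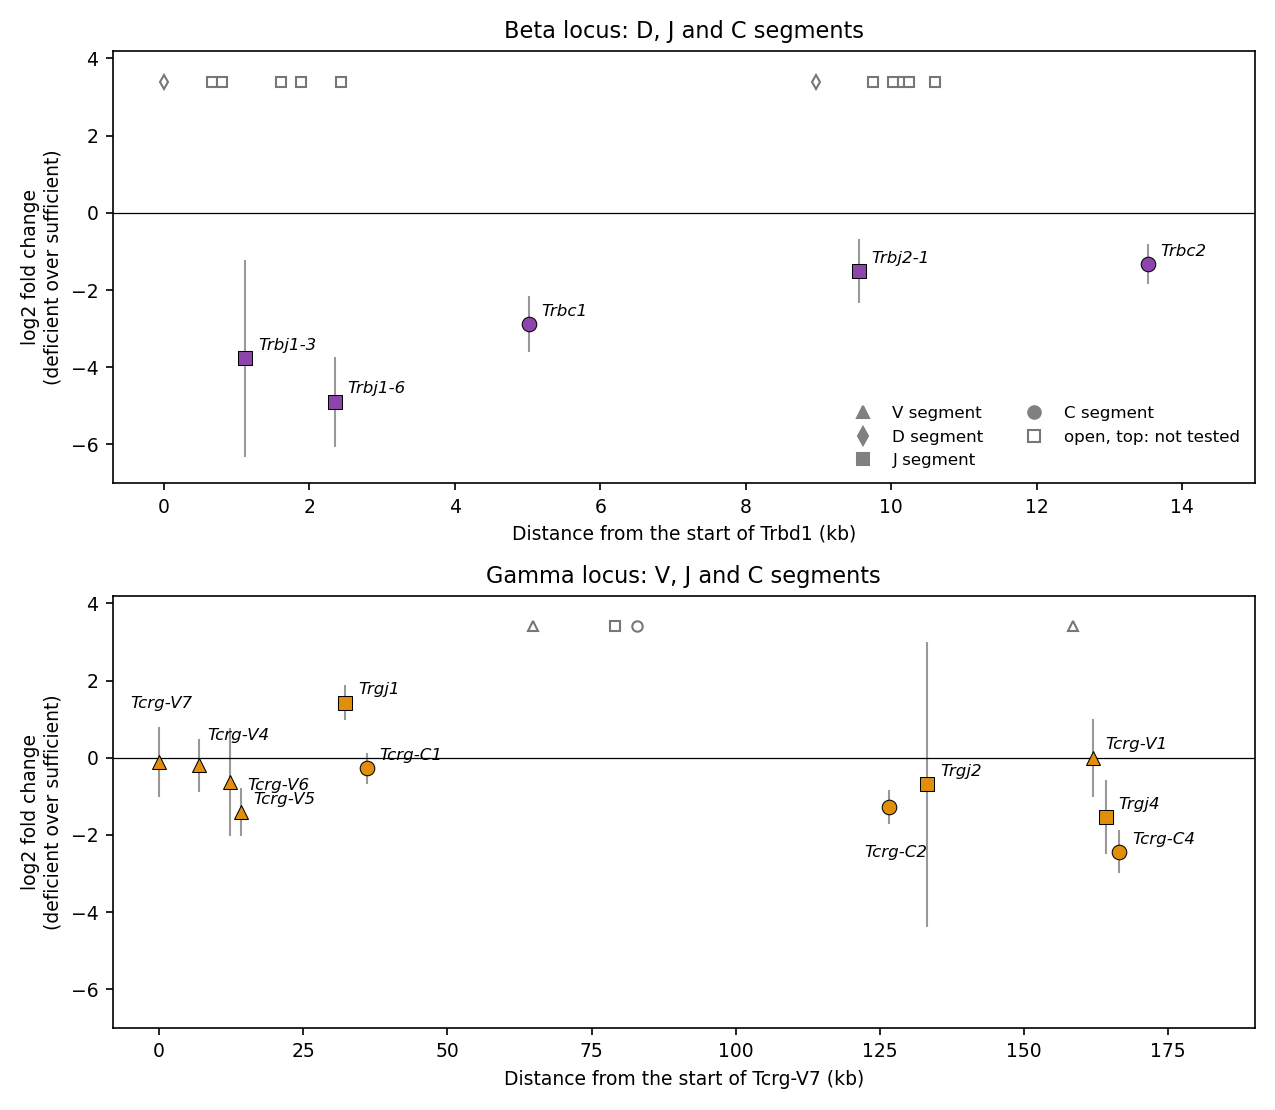
The segments are placed by their distance in kilobases from the first D segment of the beta locus (top) and from Tcrg-V7 in the gamma locus (bottom), with the log2 fold change and its 95% interval on the vertical axis. Open symbols along the top are segments below the limit for testing, which have no fold change. All tested beta J and C segments lie below 0, and in the gamma locus Trgj1 lies above 0 beside a nearly level Tcrg-C1 while Trgj4 and Tcrg-C4 lie below 0.

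The J segments of the alpha/delta loci were mostly listed at 0: 8 of 53, all of the alpha chain, had a value in some library and 0 of 53 had one in the second Brg1-sufficient library. Traj52 was at 29.5 and 0 FPKM in sufficient ILC3s and at 0 and 8.69 FPKM in deficient ILC3s. Traj59 was at 11.1 and 0 FPKM against 0 and 3.75 FPKM. Traj50 showed the same pattern at 5.80 and 0 FPKM against 0 and 3.52 FPKM. Values of these 3 appeared in the libraries where Trac was highest within its group, the first Brg1-sufficient and the second Brg1-deficient one, and the groups overlapped in all 8. Traj46 and Traj35 had a value in the first Brg1-sufficient library alone (5.80 and 5.08 FPKM), and Traj58, Traj45 and Traj28 in a single Brg1-deficient library (4.04, 3.52 and 3.08 FPKM).

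The 4 D segments, which in T cells supply the middle of the beta and delta junctions, were listed at 0 in all 4 libraries. They are 11 to 16 bases long, and no gene of any kind shorter than 50 bases had a value: 0 of 73 such genes, of which 11 were members (4 D and 7 J segments). Between 50 and 59 bases, 24 of 154 genes of all kinds (15.6%) and 3 of 24 members had one, and between 60 and 69 bases 153 of 514 genes (29.8%) and 11 of 39 members (28.2%). Among genes from 200 to under 500 bases, the length of most V segments, the shares were 70.5% of all genes and 69.3% of members. For D and J segments a value of 0 thus cannot be read as absence of transcription. The share of J segments with a value was close to that of all genes of their length.

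**Figure D4:**
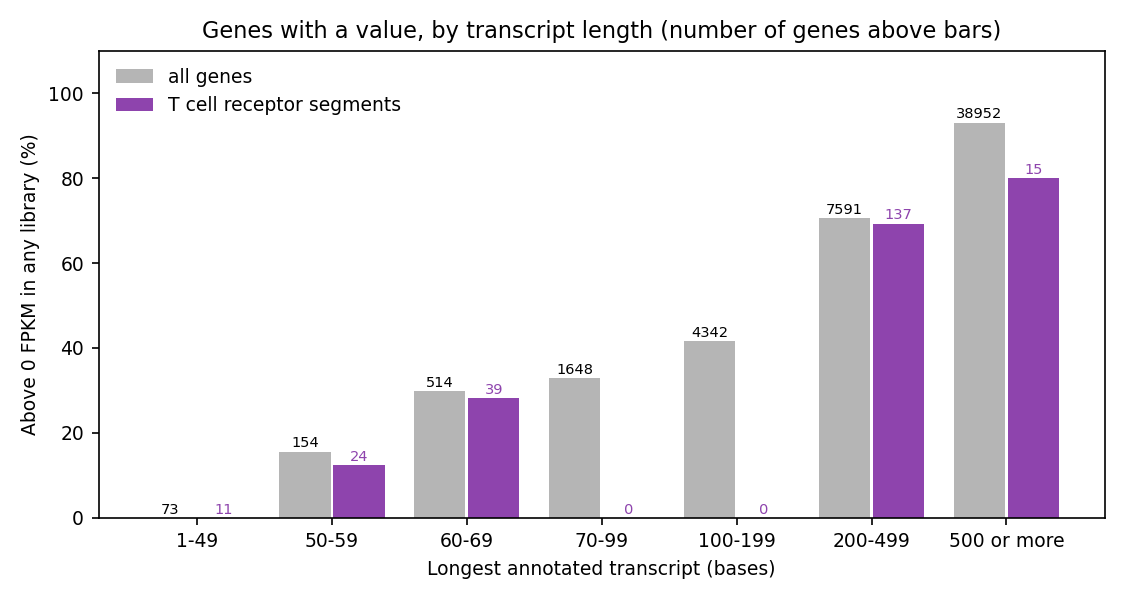
Bars give the percentage of genes with a value above 0 FPKM in any library, by the length of the longest annotated transcript in bases, for all genes (grey) and for T cell receptor segments (purple), with the number of genes above each bar. No gene under 50 bases has a value, and the segments follow the other genes of their length.

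The summed V level was below those of the C and J segments, and few V segments were abundant. It was 144.4 and 96.4 FPKM in sufficient ILC3s and 66.4 and 60.4 FPKM in deficient ILC3s, and the 2 most abundant V segments were Trdv4 and Tcrg-V5. J segments are 46 to 66 bases long and V segments 328 to 595, so a read adds more FPKM in a J segment. The J and V sums therefore do not compare numbers of transcripts. Of 144 V segments, 99 had a value in some library and 15 passed the limit for testing.

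Tcrg-V5 (chr13:19192278-19192725), the V segment nearest to Trgj1, was at 40.4 and 42.6 FPKM in sufficient ILC3s and at 19.0 and 11.7 FPKM in deficient ILC3s. Both deficient values were lower, by a log2 fold change of -1.41 (SE 0.247, limma, adjusted p = 0.109), so that within 1 cassette Tcrg-V5 was lower, Trgj1 higher and Tcrg-C1 nearly level. The other V segments of that cassette were low and overlapped between the groups. Tcrg-V4 was at 3.76 and 6.28 FPKM against 4.32 and 3.93 FPKM, Tcrg-V7 at 1.06 and 2.37 FPKM against 1.37 and 1.47 FPKM, and Tcrg-V6 at 2.80 and 0.41 FPKM against 0.59 and 0.43 FPKM. An antisense gene, Gm31887, overlaps all 4 of them and was at 32.4 and 38.3 FPKM against 21.6 and 26.3 FPKM (log2 fold change -0.55, SE 0.179, limma, adjusted p = 0.316). Whether the counting used strand is not given in the sources used here. The overlap was found from gene spans and not from exons, so whether reads of Gm31887 entered these V values is not known.

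Tcrg-V1, the V segment of the Tcrg-C4 cassette, was at 2.04 and 1.98 FPKM in sufficient ILC3s and at 3.26 and 1.12 FPKM in deficient ILC3s. Its groups overlapped, although Trgj4 and Tcrg-C4 downstream of it were lower. The 95% interval of its log2 fold change reached from -1.02 to 1.01.

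Trdv4 (chr14:54074905-54075515), a V segment that lies upstream of the delta D, J and C genes, was the most abundant V segment of the alpha/delta loci. It was at 50.5 and 24.5 FPKM in sufficient ILC3s and at 25.4 and 15.3 FPKM in deficient ILC3s, so that the groups overlapped slightly (log2 fold change -0.80, SE 0.401, limma, adjusted p = 0.493). The antisense gene Gm30275, which overlaps it, was at most 0.16 FPKM. No other alpha/delta V segment went above 5.97 FPKM in any library. Trav6n-7 and Trav6d-7, copies with an identical transcript, shared that value in the first Brg1-sufficient library and were at 0 FPKM in the second, and both were at 1.07 and 2.35 FPKM in deficient ILC3s. Trav6-6 and Trav6d-6 were likewise identical to each other, at 1.78 and 0.64 FPKM against 0 and 1.04 FPKM. In all, 39 alpha/delta V segments had no 50-base window of their own, so that their single values are uncertain and only the sums over such copies can be read.

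The beta V segments were all below 10 FPKM. Trbv1, which lies far upstream of the others, was at 8.86 and 0.84 FPKM in sufficient ILC3s and at 1.22 and 3.43 FPKM in deficient ILC3s, the same order of libraries as for Trac. Trbv13-2 was at 0.90 and 2.02 FPKM against 0 and 0.14 FPKM, lower without overlap (log2 fold change -1.17, SE 0.432, limma, adjusted p = 0.367). Trbv12-2 was also lower without overlap, at 0.99 and 1.09 FPKM against 0.58 and 0.12 FPKM. The groups overlapped for Trbv13-1, at 2.16 and 0 FPKM against 0 and 0.15 FPKM, and for Trbv21, which stayed below 1 FPKM in each library.

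**Figure D5:**
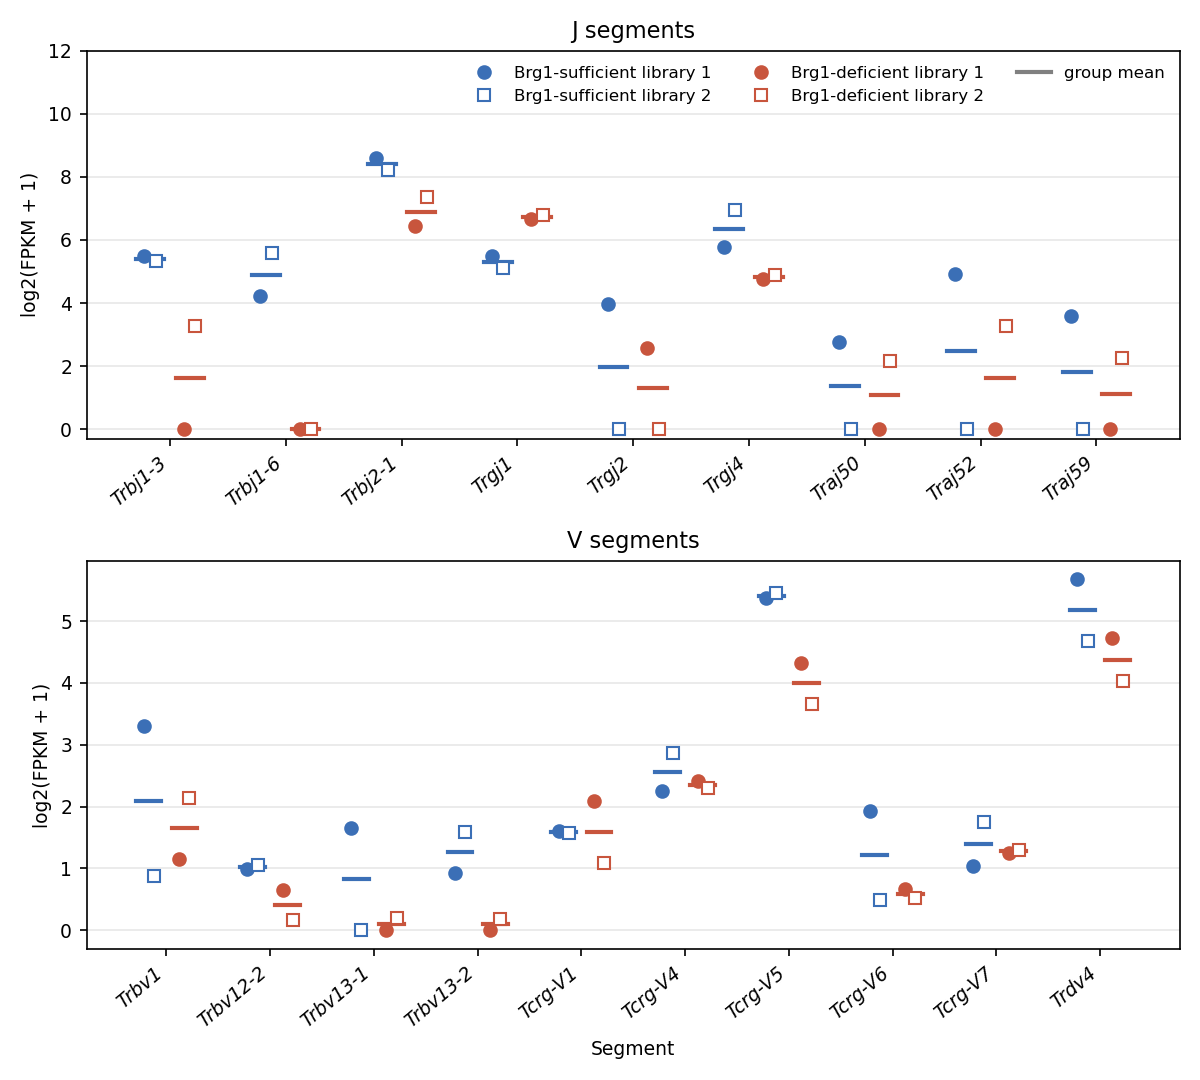
Values of the J segments (top) and V segments (bottom) named in the text are shown per library as log2(FPKM + 1), with a bar at each group's mean. Trbj1-3, Trbj1-6, Trbj2-1, Trgj4 and Tcrg-V5 are lower and Trgj1 is higher in both Brg1-deficient libraries, and the 3 alpha J segments shown have a value in 1 library of each group.

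Summed by locus, the Brg1-deficient level relative to the Brg1-sufficient one was lowest for the beta segments and highest for the gamma segments, and the difference between loci was not tested. The beta sum was 755 and 598 FPKM in sufficient ILC3s and 173.4 and 247 FPKM in deficient ILC3s, a ratio of the means of 0.311. The gamma sum was 571 and 722 FPKM against 459 and 471 FPKM, a ratio of 0.719. The alpha/delta sum was 171.4 and 42.7 FPKM against 44.5 and 69.7 FPKM, and its ratio of 0.533 became 1.34 without the first Brg1-sufficient library. FPKM is divided by length, so a read in a short J segment adds more than a read in a long C gene. Trbj2-1, of 50 bases, made up 50.3% of the mean beta sum in sufficient ILC3s and 59.3% in deficient ILC3s. The number of reads behind that share is unknown and may be small. Without Trbj2-1 the beta ratio was 0.254.

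Genes that work with the T cell receptor were set beside the segments, and their counts and those of the lists that follow stand against 6.47% lower and 6.12% higher among all genes tested at an unadjusted p under 0.05. Of 11 genes of the CD3 complex and receptor assembly, all tested, 5 were lower and 0 higher at an unadjusted p under 0.05, 0 had an adjusted p under 0.05 (limma), and the median log2 fold change was -0.77. Cd3g, a signalling chain of the receptor complex, was at 37.2 and 10.7 FPKM in sufficient ILC3s and at 1.21 and 5.04 FPKM in deficient ILC3s (log2 fold change -2.53, SE 0.703, limma, adjusted p = 0.244). Cd3e, its partner chain, was at 8.95 and 7.02 FPKM against 1.01 and 3.08 FPKM. Lck, the kinase that phosphorylates the CD3 chains, was at 57.5 and 47.5 FPKM against 23.8 and 21.8 FPKM (log2 fold change -1.16, SE 0.165, limma, adjusted p = 0.0843). Fcer1g, an adaptor also used by innate receptors, was at 834 and 797 FPKM against 774 and 852 FPKM, with overlapping groups. Zap70, another kinase of the list, was higher without overlap, at 108.7 and 125.6 FPKM against 152.2 and 136.7 FPKM. Across the list 8 genes were lower and 1 was higher without overlap, where 20.2% and 24.4% of all genes tested were.

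Of 12 genes of V(D)J recombination, 10 were tested, 1 was lower and 0 were higher at an unadjusted p under 0.05, and the median was 0.05. The 1 was Dntt, the transferase that adds bases at the junctions, at 7.54 and 10.6 FPKM in sufficient ILC3s and at 0.35 and 2.21 FPKM in deficient ILC3s (log2 fold change -2.25, SE 0.457, limma, adjusted p = 0.142). Rag1 and Rag2, the recombinase genes, stayed below 1 FPKM in each library. Of 26 genes for factors known to act at T cell receptor enhancers or promoters, or for their upstream receptor, 3 were lower and 2 higher at an unadjusted p under 0.05, and the median was -0.22. The lower ones were Myb, Ets1 and Tcf4, with log2 fold changes of -1.16, -0.49 and -0.79, and among the higher ones Lef1 was at 1.09. Il7r, the receptor whose signal is known to open the gamma locus, was at 433 and 542 FPKM against 486 and 583 FPKM, with overlapping groups.

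Of 20 genes in the regions around the loci, 13 were tested, 1 was lower and 2 were higher at an unadjusted p under 0.05, and the median was 0.02. Stard3nl, a neighbour of the gamma locus, was at 37.4 and 43.3 FPKM in sufficient ILC3s and at 76.8 and 93.2 FPKM in deficient ILC3s (log2 fold change 1.05, SE 0.168, limma, adjusted p = 0.0988), in the opposite direction to most gamma segments. Dad1, the gene next to Trac, was at 379.8 and 347.8 FPKM against 400.3 and 336.9 FPKM, with overlapping groups. The other 2 that passed an unadjusted p under 0.05 were Prss2, lower at a log2 fold change of -1.86, and Epdr1, higher at 0.96.

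Markers of the sorted cells and of other cells differed along with some of these results. All 12 ILC3 markers were tested, and 2 were lower and 3 higher at an unadjusted p under 0.05. Kit, the receptor for stem cell factor, was at 245.5 and 249.7 FPKM in sufficient ILC3s and at 285 and 242.1 FPKM in deficient ILC3s, and overlapped. Ncr1, the gene of the receptor NKp46 that marks a subset of ILC3s, was lower, at 31.3 and 35.5 FPKM against 5.37 and 6.02 FPKM (log2 fold change -2.36, SE 0.17, limma, adjusted p = 0.033). Ccr6, a chemokine receptor of another subset, was at 185.8 and 203.3 FPKM against 92.9 and 105.8 FPKM, lower without overlap, and Il17f, a cytokine gene, was higher at a log2 fold change of 2.08 (SE 0.199, limma, adjusted p = 0.0386). Of 14 alpha/beta T cell markers, 11 were tested and 6 were lower at an unadjusted p under 0.05, with sums of 231 and 155 FPKM against 147 and 127 FPKM in which Lat was the largest part. Among the defining ones, Cd5 was at most 0.30 FPKM and Cd8a at most 1.47 FPKM, while Cd4, which some ILC3s also express, was at 43.6 and 32.8 FPKM against 25.2 and 19.8 FPKM. Cd8b1 was at most 4.38 FPKM and Cd28 at most 4.05 FPKM, both in the first Brg1-sufficient library, and the CD3 chains are given above. Of 5 gamma/delta T cell markers, 4 were tested, 3 were lower and 1, Gzma, was higher at an unadjusted p under 0.05, and Sox13 was at most 0.44 FPKM. Their sums were 115.4 and 185.4 FPKM against 434 and 266.5 FPKM. Gzma was the largest part of both sums in deficient ILC3s, at 397.1 and 217.7 FPKM, against 50.8 and 102.8 FPKM in sufficient ILC3s.

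The sum of the ILC2 markers was highest in the first Brg1-sufficient library, the same in which Trac, Trbv1, Traj52, Traj59 and Traj50 were highest. The sums were 363 and 201 FPKM in sufficient ILC3s and 95.1 and 120.8 FPKM in deficient ILC3s. Gata3 was the largest part of each, at 183.2 and 110 FPKM against 74.5 and 105.2 FPKM. Of the 7 tested, 5 were lower at an unadjusted p under 0.05. Ccr8 was at 51.7 and 8.41 FPKM against 0.23 and 0.24 FPKM. Areg alone was higher in the second Brg1-sufficient library than in the first, at 26.7 and 58.7 FPKM against 16.4 and 11.3 FPKM. The segments named here were next highest in the second Brg1-deficient library. Its ILC2 sum was above that of the first Brg1-deficient library and below that of the second Brg1-sufficient one. Cd8b1 and Cd8a, of the alpha/beta T cell list, were likewise highest in the first Brg1-sufficient and next highest in the second Brg1-deficient library. The other markers of that list did not have this order. A link between these markers and the segments was not tested. Of the 7 ILC1 and NK markers tested, 4 were lower at an unadjusted p under 0.05: Tbx21, Ncr1, Prf1 and Ifng. Ncr1 is also on the ILC3 list, and the study describes T-bet (the product of Tbx21) and IFN-γ (of Ifng) in NKp46+ ILC3s. The marker sums were 141.5 and 254.7 FPKM against 91.1 and 57.8 FPKM. Gzmb, whose groups overlapped, was the largest part of each. B cell markers were near 0 except Cd79b, which was at 8.68 and 10.02 FPKM against 1.03 and 0.99 FPKM. Sums of the myeloid markers were 153.4 and 338 FPKM against 112.3 and 301.2 FPKM, with 1 of 7 tested lower at an unadjusted p under 0.05, and those of the epithelial markers were 11.4 and 11.1 FPKM against 24.1 and 22.3 FPKM, with 2 of 4 tested higher. No marker on these lists was at 0 in all 4 libraries. The part of other cells in the T cell receptor results was not tested, and in bulk libraries fewer cells of a type and less RNA per cell cannot be told apart.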

How the data were processed

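RNA-seq was made from 2 Brg1-sufficient and 2 Brg1-deficient libraries, described as biological duplicates; no source says whether they came from separate mice, so p-values measure only the spread between these libraries. The authors aligned single-end reads with STAR 2.5 to GRCm38.p5, quantified GENCODE M16 genes with RSEM 1.2 and deposited FPKM values. The sources give the read length as both 50 and 90 bases. Of 13693 ranks with a mean above 1, 13596 (99.3%) of the deposited FPKM values were within 1% across the libraries, so the distributions had been made equal, and any difference in total RNA is absent. No read counts were used and depth is unknown.

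Genes with a mean above 1 FPKM in either group (14739) were tested with limma 3.58.1 (lmFit, eBayes with trend; R 4.3.3) on log2(FPKM + 1), which understates changes of low genes, with Benjamini-Hochberg adjustment over all of them. The self-test used simulated data. Lengths, positions, sequences and shared 50-base windows came from GENCODE M21 transcripts (Python 3.11.15), in which all 226 members were found by identifier. The looser criteria take their limits from the study's own gene list, applied here to limma's p-values. The members and gene lists were chosen with earlier results of these data known. Named segments were all C and D segments, the 5 V and 5 J segments of each locus with the highest mean FPKM, and those called; Traj58, Traj45 and Traj28 were named after their values were seen. Alternatives were a pseudocount of 0.1, other filters, no trend, quantile normalization, a replicate block and leaving out each library. One gene of the lists is counted but its values are not reported here.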

Additional observations from a re-analysis of the deposited data

How the results depend on the processing

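The 3 lower segments at an adjusted p under 0.05 were also 3 with a pseudocount of 0.1 and with a mean above 5 FPKM. Quantile normalization could change little, since the deposited distributions were already equal, and also gave 3. They were 0 without a filter (13 at an unadjusted p under 0.05), 0 without the trend (11), and 0 with any library left out (8 to 12). The higher count of 0 became 1, Trgj1, with a mean above 5 FPKM. Over all genes, 33 lower and 12 higher became 0 and 0 without a filter (1400 and 1308 unadjusted), 0 and 0 without the trend (965 and 903), 73 and 41 with a mean above 5 FPKM, and 0 and 0 with any library left out. The 9 lower and 1 higher segments by the looser criteria became 0 to 6 and 0 to 1 with a library left out; 5 lower remained without Brg1-sufficient library 1, and 0 lower and 0 higher without either Brg1-deficient one. Non-overlapping segments were 24 lower and 6 higher without a filter, where more segments were counted.

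With the replicate block, an adjusted p under 0.05 was reached by 9 lower segments and 1 higher one, and by 248 lower and 150 higher genes in all. The labels give the groups shared numbers but do not say that these pair the libraries, and the correlation of same-numbered libraries' deviations from their group means was -0.000386.

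Summed ratios moved to 0.604 for gamma and 0.278 for C segments without Tcrg-C1, to 0.646 for J segments without Trbj2-1, and, with a library left out, ranged from 0.333 to 1.34 for alpha/delta. That of V segments ranged from 0.439 to 0.657, the highest without Brg1-sufficient library 1. With a pseudocount of 0.1 the log2 fold change of Trav6d-7 and Trav6n-7 turned to 1.12. With a library left out, the direction turned for Tcrg-V1 (-0.51 to 0.50), Tcrg-V4 (-0.51 to 0.11), Tcrg-V6 (-1.33 to 0.10), Tcrg-V7 (-0.48 to 0.23), Trac (-1.94 to 0.63), Traj50 (-1.68 to 1.09), Traj52 (-3.29 to 1.64), Traj59 (-2.47 to 1.12), Trav6d-7 and Trav6n-7 (-1.40 to 1.40), Trbv1 (-1.65 to 0.77), Trbv13-1 (-1.56 to 0.10) and Trgj2 (-2.68 to 1.29). It did not turn for Trbc1 (-3.29 to -2.47), Tcrg-C4 (-2.66 to -2.23), Trbj1-6 (-5.58 to -4.21) or Trgj1 (1.24 to 1.62). A lone library left in a group was assumed to vary like the others. The causes were not tested. With depth unknown, a zero cannot be told from a low level.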

Other observations

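The 44 rows with a T cell receptor pseudogene biotype, which were not counted as members, summed to 2.92 and 3.09 FPKM in Brg1-sufficient ILC3s and to 2.73 and 2.63 FPKM in Brg1-deficient ILC3s, a ratio of the means of 0.892. The 13 constant genes of the immunoglobulin loci, the B cell counterpart of these segments, summed to 25.4 and 16.4 FPKM against 35.8 and 49.9 FPKM and were higher in both Brg1-deficient libraries. Ighm, the constant gene of the IgM heavy chain, made up 90.4% of the mean sum in Brg1-sufficient ILC3s and 94.4% in Brg1-deficient ILC3s.

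In 13 sets of 2 or 3 members, all 4 values were identical within the set although not all were at 0. In 10 of them, a transcript of one member was identical in sequence to a transcript of another.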
